A study of Mus musculus with 20 samples.

Results

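DNA methylation was compared between control mice of 13 months and control mice of 3 months, 4 reduced representation bisulfite libraries at each age, which are 8 of the 20 libraries of the series. All mice had the B6D2F1/J background, the first-generation cross of C57BL/6J and DBA/2J. The controls carried the WT genotype, without the human wild-type α-synuclein transgene that the other 12 libraries (HEM) carry on the X chromosome under the murine Thy-1 promoter. DNA came from brain homogenate enriched for microglia, so each library mixes microglia with whatever other brain and blood cells remained. The values are percent methylation per CpG position, one file per library. At 13 months 1151247 CpGs were listed and at 3 months 1234494; 1132618 were listed at both ages, of which 1108530 lie on autosomes. Chromosome 17 (52926 CpGs) and a stretch of chromosome 9 (chr9:123923001-123934000, mm10, 64 CpGs) are described apart, and the remaining autosomes hold 1055540 CpGs.

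Methylation of cytosine in CpG pairs is copied by maintenance enzymes when DNA replicates, and it can be gained or lost at single positions over life. CpG-rich promoters are mostly unmethylated, and most CpGs elsewhere are highly methylated. In ageing tissues, gains are best known at CpG-rich regions of developmental genes and losses at highly methylated positions, and selected CpGs are used as age clocks. Reduced representation sequencing cuts DNA with a restriction enzyme and reads the ends of short fragments, so it covers CpG-rich sequence well and open sequence thinly.

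Sequences are given for 2 windows on which the results turn: the promoter of B3gnt8, the only promoter among those of smallest p that also holds a called CpG, and the promoter inside the chromosome 9 stretch. Each runs from 250 bases before to 50 bases after the RefSeq start on the + strand of GRCm38.p6, the assembly that mm10 represents. Capitals mark CG pairs measured in the libraries. The B3gnt8 window holds 23 CG pairs, 10 of them measured, and the Gm51701 window holds 14, 8 of them measured. A count as high as that of B3gnt8 was found in 22.1% of RefSeq promoter windows of this length, and one as high as that of Gm51701 in 36.8%.
B3gnt8 (chr7:25627374-25627673): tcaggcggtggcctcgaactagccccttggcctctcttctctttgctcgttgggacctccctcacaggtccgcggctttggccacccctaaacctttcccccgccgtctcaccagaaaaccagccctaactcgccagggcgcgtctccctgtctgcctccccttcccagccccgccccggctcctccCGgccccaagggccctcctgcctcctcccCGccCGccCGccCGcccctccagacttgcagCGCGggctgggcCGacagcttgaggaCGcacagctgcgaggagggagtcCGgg
Gm51701 (chr9:123924898-123925197): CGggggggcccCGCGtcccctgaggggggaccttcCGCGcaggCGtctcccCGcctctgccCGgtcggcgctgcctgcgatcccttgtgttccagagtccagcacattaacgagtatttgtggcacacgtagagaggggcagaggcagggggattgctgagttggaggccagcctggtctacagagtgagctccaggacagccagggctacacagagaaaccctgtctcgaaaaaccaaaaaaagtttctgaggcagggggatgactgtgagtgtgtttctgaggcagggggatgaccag

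3 properties of the libraries bear on everything that follows. Age and the separately listed sets of CpGs coincide, since each age has its own set of positions, so age and any difference in handling between the sets cannot be told apart. The series text counts 3 WT mice at 3 months whereas 4 libraries carry that label, so the p-values measure the spread between libraries and their independence as animals rests on the labels. Just past the end of Thy1 on chromosome 9, 4 CpGs read 83.9, 89.18 and 89.47% in WT replicates 1, 4 and 5 of 3 months and between 79.07 and 85.24% in the 4 WT libraries of 13 months. The HEM libraries of 13 months ran from 31.8 to 89.8% there, some of them among the WT values. At that age these CpGs thus did not separate the genotypes. WT replicate 3 of 3 months read 38.93%, within the 37.37 to 52.63% of the HEM libraries of 3 months. It stands apart from its group, and its genotype was not tested. Counts of calls are also given without it where they change.

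The mean level of the remaining autosomes did not separate the ages. It was 30.67, 31.1, 31.03 and 30.36% in the 4 libraries of 13 months and 30.49, 30.04, 30.98 and 30.11% in those of 3 months. The means were 30.79 ± 0.346% (SD, n = 4) and 30.41 ± 0.433% (SD, n = 4), and a difference of 0.3835 percentage points gave p = 0.257 (exact two-sided permutation test; adjusted 0.349 over 10 classes of CpGs). With 4 libraries against 4, the smallest p this test allows is 0.0286. In a DNA pool from many cells, a shift in the shares of cell types and a change of methylation per cell cannot be told apart. HEM libraries, which share no library with this comparison, differed by 0.4387 points between the same ages.

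All 10 classes had a higher mean at 13 months, and none passed the test. CpGs of intermediate level had the widest differences. Positions averaging 30 to 70% stood at 53.39 ± 1.46% against 52.0 ± 2.14% (p = 0.314), and those at 5 to 30% stood at 15.57 ± 1.68% against 14.34 ± 1.13% (p = 0.229, both exact permutation tests, n = 4 each). Unmethylated CpGs, under 5% on average and 593735 in number, stood at 0.551 ± 0.0776% against 0.469 ± 0.0227% (exact permutation p = 0.114, n = 4 each). Fully methylated CpGs of 95% or more stood at 96.71 ± 0.261% against 96.46 ± 0.0745% (exact permutation p = 0.114, n = 4 each), with a HEM difference of 0.0006361 points. CpGs over 1 kb from any gene had 64.7 ± 0.772% against 63.74 ± 0.743% (exact permutation p = 0.143, n = 4 each), whereas those inside genes differed by less, 26.47% against 26.17% (exact permutation p = 0.286). The RefSeq promoter windows averaged 2.182% and 2.091% (exact permutation p = 0.143).

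**Figure D1:**
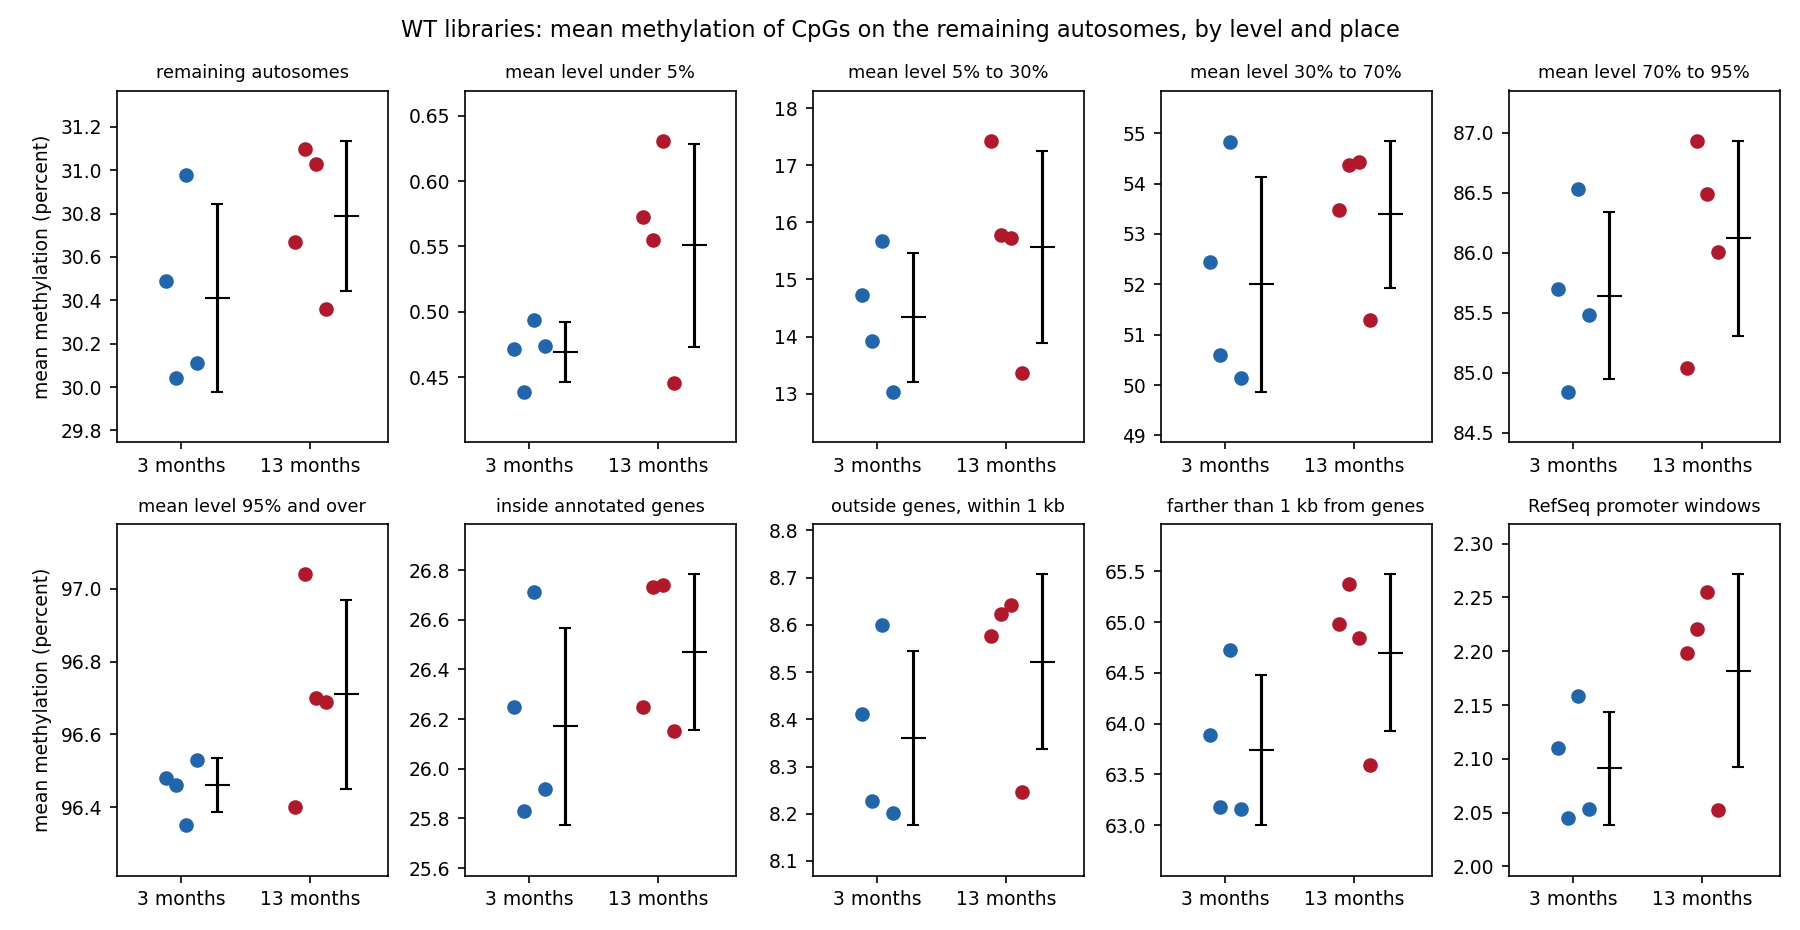
Mean methylation (percent, each panel with its own axis that does not start at 0) of classes of CpGs, with 1 point per WT library, red at 13 months and blue at 3 months, and bars for the mean ± SD. The groups overlap in each of the 10 panels, and 1 library of 13 months, replicate 7, lies below the others in 8 of them.

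Replicate 7 was the lowest of the 13-month libraries in 8 of the 10 classes, and replicate 4 the highest of the 3-month libraries in 9. Over single CpGs of intermediate level, the SD was more often larger among the 13-month libraries. At CpGs of 5 to 95%, the SD among the 13-month libraries exceeded that among the 3-month ones at 57.8% of positions, with medians of 6.92 and 6.1 points. At CpGs of 30 to 70% this held at 64.5%, with medians of 11.1 and 8.79 points. At CpGs of 95% and over it held at 47.8% (2.62 and 2.73 points), and under 5% at 36.1%. The mean distance between 2 libraries was 4.42 points (4.16 to 4.74) within 13 months, 3.84 (3.61 to 4.11) within 3 months and 4.14 (3.73 to 4.70) across ages, so libraries of different ages were no farther apart than libraries of 13 months were from each other. No test was made of these distances, since pairs share libraries.

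Position by position, 411150 CpGs of the remaining autosomes with a mean of 5 to 95% were tested with limma on a logit-like scale. A CpG was called when its adjusted p was under 0.05 (Benjamini-Hochberg over all autosomes) and its means differed by at least 10 points. 24 CpGs passed, 0.00584% of those tested, 17 higher (0.00413%) and 7 lower (0.0017%) at 13 months. At an unadjusted p under 0.05 there were 19492 (4.74%), and at 11642 (2.83%) the groups did not overlap, 7725 with 13 months above and 3917 below. The tested CpGs as a whole leaned upward: 56.6% were higher at 13 months, with a median difference of 0.828 points and a 5th to 95th percentile range of -9.02 to 10.8. This lean was shared by every chromosome, from 55.7% on chromosome 10 to 57.8% on chromosome 3, and 56.4% of HEM CpGs were higher at 13 months too.

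6 called CpGs went from unmethylated to partly methylated, in Psd, B3gnt8, Lyl1, Shank1, Scn8a and Fam178b. A CpG in Psd, which encodes an exchange factor for the small GTPase ARF6, had the widest difference. On chromosome 19 at 46318331 it read 34.48, 20, 32.14 and 33.33% at 13 months and 0, 0, 0 and 3.846% at 3 months, a rise from 0.962 ± 1.92% to 30 ± 6.73% (n = 4 each; limma, adjusted p = 0.0302). The groups did not overlap, but its 8 neighbours within 100 bp had a median difference of -0.312 points, and HEM means were 12.74% and 7.34%.

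At 5 other CpGs every 3-month library was at 0. The B3gnt8 position (chromosome 7, 25627634) lies just inside this glycosyltransferase gene, within the printed window. It read 12.12, 9.524, 7.143 and 17.65% at 13 months (mean 11.6 ± 4.51%, n = 4; limma, adjusted p = 0.0148). Lyl1, a basic helix-loop-helix factor of blood cell development, had 16.22, 8.333, 10.2 and 14.81% at chromosome 8, 84701895 (limma, adjusted p = 0.00865). The CpG is 438 bp past the start, and 12 neighbours had a median difference of 4.77 points. The adjacent listed cytosine, on the other strand, differed by only 0.2289 (6.849% against 6.62%). Whether such adjacent cytosines share a CG pair was not checked against sequence, here or at the called CpGs below.

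Shank1, a scaffold of the postsynaptic density, had 15.91, 8.333, 20.83 and 11.11% at chromosome 7, 44352760 (limma, adjusted p = 0.00984). There 18 neighbours had a median difference of 4.59 points, and the adjacent cytosine on the other strand differed by 6.389. Scn8a, a voltage-gated sodium channel of neurons, had 23.08, 8.696, 11.76 and 12.5% at chromosome 15, 100983811 (limma, adjusted p = 0.0113). In Fam178b the CpG at chromosome 1, 36569835 had 22.22, 13.64, 13.64 and 10% (limma, adjusted p = 0.00606). Its 4 neighbours had a median difference of 10.8 points, yet the adjacent cytosine on the other strand differed by -0.5704. In HEM libraries the CpGs of Shank1 and Scn8a were slightly lower at 13 months, by -0.3243 and -2.645 points.

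The other 11 called rises ended at 100% in every 13-month library. The smallest adjusted p of the remaining autosomes, 0.00451 (limma), belonged to chromosome 1, 7237201, which lies 63573 bp from Pcmtd1, its nearest coding gene. It read 89.66, 86.67, 82.35 and 87.1% at 3 months. A CpG 272446 bp from Zfp703, chromosome 8, 26704890, read 72.2, 80, 84.13 and 90% at 3 months, a difference of 18.42 points (limma, adjusted p = 0.00632). In the long noncoding gene A930027H12Rik, chromosome 15, 87178795 differed by 17.59 points (limma, adjusted p = 0.00807). The others lay in Cnbd1 (13.8 points, and 1.651 on the other strand), Fhad1 (12.98), Plcd3 (11.65), a phospholipase C gene, and Gpatch2l (11.35), or far from genes, nearest to Epha6, Frmd4b, Parp11 and Zfat (10.58 to 13.18 points).

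Among the 7 CpGs that fell, 6 left full methylation and 1 reached 0. The CpG of Mgmt, which encodes the DNA repair enzyme that removes alkyl groups from guanine, had 100% in all 3-month libraries. On chromosome 7 at 137064469 it read 70.37, 91.3, 80 and 91.18% at 13 months (83.2 ± 10.1%, n = 4; limma, adjusted p = 0.0308). HEM libraries went the other way there, with 97.97% at 13 months and 85.64% at 3 months. In Ntpcr, a nucleoside triphosphatase gene, chromosome 8, 125734756 read 18.75, 18.18, 10 and 10.53% at 3 months and 0 in all 4 libraries of 13 months (limma, adjusted p = 0.00666). It lies 553 bp past the start, and its neighbours had a median difference of -5.07 points.

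Mad1l1, a spindle checkpoint gene, had 94.59, 77.78, 90 and 82.76% at chromosome 5, 140146153 and 100% before (limma, adjusted p = 0.0474). The CpG 18629 bp from Stk31 (chromosome 6, 49488135) fell by 15.24 points (limma, adjusted p = 0.0338), with a neighbour difference of -18.8. Smaller falls, by 10.57 to 10.89 points, were at Tcf7l1, a transcription factor of Wnt signalling, at Itga2b, the platelet integrin αIIb, and 5831 bp from Gm35315. At the adjacent cytosine on the other strand Tcf7l1 differed by -1.538 and Itga2b by -0.8548 points. At Tcf7l1 the HEM difference was +6.485 points.

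**Figure D2:**
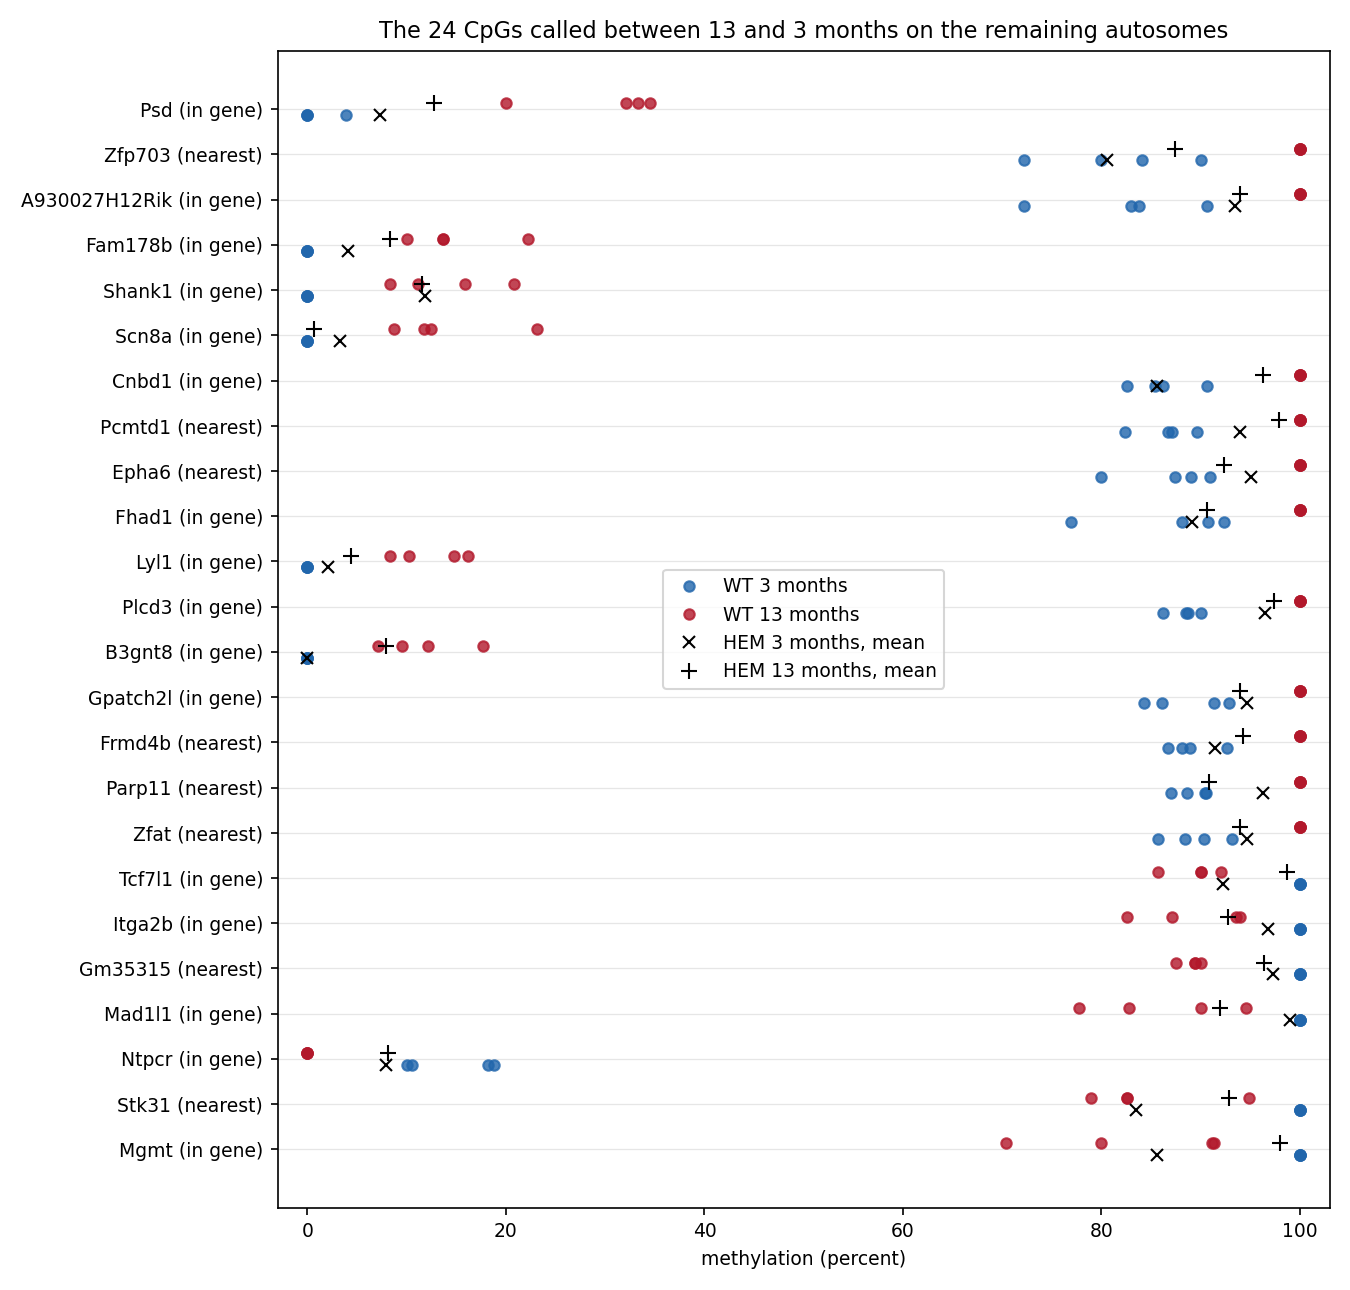
Methylation (percent) of each called CpG of the remaining autosomes, named by its gene or nearest coding gene, with 1 point per WT library, red at 13 months and blue at 3 months, and crosses for the HEM means of each age. In 23 of the 24 positions 1 age sits at exactly 0 or 100% in all 4 libraries.

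The calls shared a form that the threshold on difference does not ask for. In 23 of the 24, all 4 libraries of 1 age stood at exactly 0 or 100%, 12 times at 13 months and 11 times at 3 months, which leaves no spread in that group on the tested scale. The depth behind each percent is unknown, so the precision of such a 0 or 100 cannot be given. Of the 24, 16 lay in annotated genes, and 76.7% of all listed CpGs of the remaining autosomes did. A neighbour within 100 bp was listed for 22, and the median of the neighbours had the same sign for 15, by at least 5 points for 5. Beside 53.0% of all tested CpGs, HEM libraries differed in the same direction at 14 of the 24, with a median of 0.9 points. Of 18 that could be tested for a different age effect in HEM, none passed adjustment (limma, smallest adjusted p = 0.517), while 15 had an unadjusted p under 0.05, on the same values that chose them. Without WT replicate 3 of 3 months 12 CpGs were called, 7 of them among the 24. When limma was fitted to the percent values themselves, 5 CpGs were called and none of the 24 was among them.

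Those positions had wide differences and moderate spread, and 4 of the 5 are given as an alternative result of the percent scale. In Csmd1, which encodes a membrane protein with complement control domains, chromosome 8, 16094221 read 47.73, 35.79, 35.71 and 44.07% against 84.71, 93.75, 96.99 and 98.75% (limma on percent, adjusted p = 0.0052). Chromosome 9, 124442684, in LOC108167320, read 46.3, 34.62, 51.22 and 53.12% against 91.16, 97.1, 91.0 and 100% (limma on percent, adjusted p = 0.015). It lies 508684 bp past the chromosome 9 stretch, and the HEM means, 50.37 and 99.37%, showed a like gap. Another 2 were single CpGs of the called tiles described next.

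Averages over 1 kb tiles with at least 3 CpGs gave 2 calls among 65123 tiles (0.00307%), where a call needed 5 points, 1 in each direction (0.00154% each). An unadjusted p under 0.05 was found in 3225 tiles (4.95%) and non-overlapping groups in 1952 (3.0%). A tile on chromosome 19 (15433001 to 15434000, 471578 bp from Psat1 at its strongest CpG) read 83.38, 82.65, 82.44 and 79.51% at 13 months and 95.62, 94.72, 95.77 and 94.12% at 3 months. It fell from 95.1 ± 0.782% to 82.0 ± 1.70% (n = 4 each; limma, adjusted p = 0.0459), and HEM libraries had 81.13% and 93.11%. A tile on chromosome 9 (18009001 to 18010000, outside the stretch) read 92.93, 94.02, 93.66 and 94.58% against 80.7, 80.99, 80.03 and 79.67%. It rose from 80.4 ± 0.607% to 93.8 ± 0.689% (n = 4 each; limma, adjusted p = 0.0473), and HEM libraries, at 83.39% and 84.67%, did not share the difference. In both tiles 1 of 4 CpGs carried the result. The chromosome 19 differences were -7.837, -42.7, 0.529 and -2.25 points, and the chromosome 9 differences were 1.596, 2.339, 41.8 and 8.063 points. At the first of these CpGs, 15433545, the 13-month libraries read 56.98, 58.46, 47.17 and 46.94%, and at the second, 18009900, they read 88.36, 94.2, 83.91 and 83.78%. Without WT replicate 3 of 3 months no tile was called, and leaving out any other library left 0 or 1.

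Among the uncalled tiles of small p, some were lower at every CpG. A tile on chromosome 18 (from 45024001) had 76.46, 35.84, 70.45 and 32.82% at 13 months and 94.61, 93.75, 94.1 and 92.95% at 3 months, with adjusted p = 0.404 (limma). All 4 of its CpGs were lower in both genotypes, and HEM means were 52.37% and 95.58%. On chromosome 3 (from 128003001), 7 of 7 CpGs were lower, 68.35, 72.32, 71.94 and 71.89% against 90.9, 86.81, 82.55 and 88.96% for the tile (limma, adjusted p = 0.58), while HEM differed by -0.223 points. On chromosome 8 (from 104695001, 38003 bp from the carboxylesterase gene Ces2a), 8 of 8 CpGs were lower in both genotypes, 78.84% against 90.28% in WT (limma, adjusted p = 0.58) and a difference of -9.405 points in HEM. In others 1 or 2 CpGs held most of the difference. In Nr3c2, the mineralocorticoid receptor gene, 1 CpG differed by 32.53 points in a tile that differed by 14.34 (limma, adjusted p = 0.404). In Abcc1, a drug efflux transporter gene, 1 CpG read 78.42% against 7.609% in a tile that differed by 17.88 (limma, adjusted p = 0.501), and HEM went the other way at that CpG, 25.44% against 39.7%.

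Single CpGs with very wide differences were spread unevenly along the genome. On the remaining autosomes 131 CpGs differed by 40 points or more, 107 lower and 24 higher. None had an adjusted p under 0.05 on the logit-like scale (limma), and 55 had groups that did not overlap. The CpGs described above as called on the percent scale are among the 131. Chromosome 8 held 50 of them, 49 lower, 0.181% of its tested CpGs; chromosome 12 held 17, all lower, and chromosome 15 held 13, all higher. Chromosomes 3, 4, 10 and 14 held none. The median of the 107 lower CpGs was 6.33, 36.1, 34.9 and 0.0% in the 13-month libraries and 53.5, 89.5, 90 and 80% in the 3-month libraries. HEM libraries differed in the same direction at 84 of the 107 and at 17 of the 24, where 53.0% of all tested CpGs did. Of 125 with a neighbour 2 to 100 bp away, the neighbours differed by a median of 1.67 points in the same direction, and at 12 by 20 points or more. These CpGs were picked by their difference, so no test is given. Whether the DNA sequence differed between libraries at them, or at the wide CpGs of chromosome 17 below, was not tested.

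No promoter of the remaining autosomes passed the test. Promoter averages (1000 bp before to 500 bp after the start, 2819 tested, 0.0% called, smallest adjusted p = 0.414, limma; 139 with an unadjusted p under 0.05, 4.93%, and 82 without overlap, 2.91%) were higher at 13 months in 59.7%. 5 windows shared this adjusted p: Gm51702 (unadjusted p = 0.000417), Krtap15 (0.000674), Nrxn3 (0.000818), B3gnt8 (0.00108) and Gm42378 (0.00139, all limma). B3gnt8, with 14 CpGs and a called one, is shown in full. Its 14 CpGs averaged 11.76, 10.1, 16.78 and 9.472% at 13 months and 7.274, 3.304, 4.751 and 3.732% at 3 months, 12.0 ± 3.31% against 4.77 ± 1.78% (n = 4 each), without overlap. Of the 14, 13 were higher at 13 months, by -1.05 to 13.1 points, and 1 was called. At the start itself the libraries read 9.091, 9.524, 14.29 and 17.65% against 7.317, 0, 0 and 0%. At 81 bp past it they read 26.33, 33.75, 41.63 and 24.7% against 19.75, 13.43, 18.78 and 21.92%.

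HEM libraries gave 11.82% and 5.373% for the same window, a difference of 6.452 points (limma, HEM libraries alone, unadjusted p = 0.0131, adjusted 0.159). They ran from 5.856 to 21.92% at 13 months and from 4.491 to 6.433% at 3 months, so the groups overlapped. All 14 CpGs had a higher HEM mean at 13 months. At the called CpG the HEM libraries of 13 months ran from 2.703 to 12.5% and those of 3 months were at 0. That CpG reached an adjusted p of 0.00916 in the HEM libraries (limma), with a mean difference of 7.944 points, under the 10 points that a call needed. The measured CG pairs are the capitals of the B3gnt8 sequence above, which lie in the last part of the window, around the start.

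**Figure D3:**
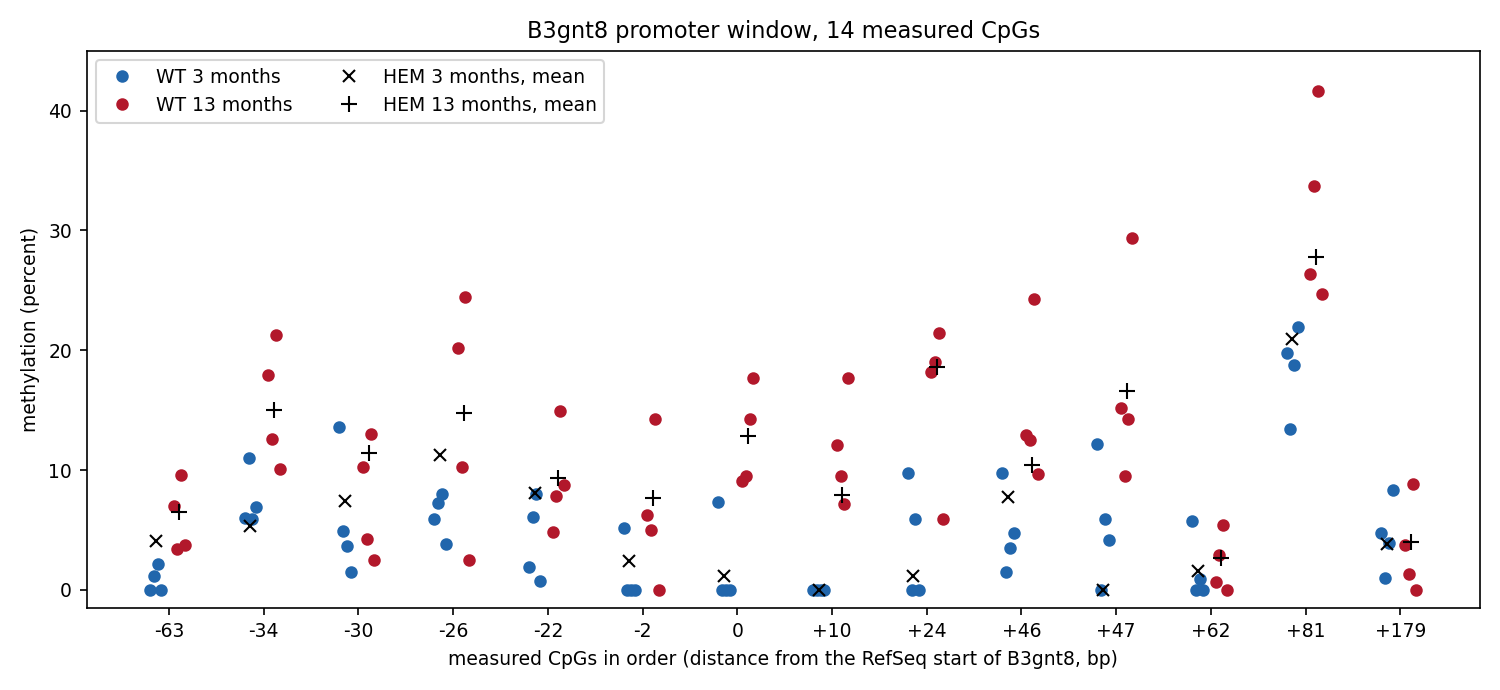
Methylation (percent) of the 14 measured CpG positions of the B3gnt8 promoter, in order and named by distance from the RefSeq start (bp, evenly spaced), with 1 point per WT library, red at 13 months and blue at 3 months, and crosses for the HEM means of each age. The WT mean of 13 months lies above that of 3 months at 13 of the 14 positions.

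The other promoters of smallest p included Vsnl1, a neuronal calcium sensor gene, which was lower at 13 months. It read 2.789, 4.035, 4.768 and 2.416% against 7.365, 7.156, 8.757 and 5.782% (3.502 ± 1.09% and 7.265 ± 1.22%, n = 4 each; limma, adjusted p = 0.49), and the HEM difference was -0.06558 points. 3 highly methylated windows had higher means at 13 months, 90.2% against 82.28% at Gm51702, 94.68% against 85.98% at Nrxn3, a presynaptic adhesion gene, and 92.56% against 84.22% at Krtap15, a keratin-associated protein gene. HEM differences were 3.057, -1.152 and -4.125 points in that order. At LOC108167320 the window was lower in both genotypes, 90.34% against 96.06% in WT (limma, adjusted p = 0.824) and -5.459 points in HEM.

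Gene regions, the annotated gene with 1 kb on each side, also gave no call on the remaining autosomes among 16320 tested (0.0%; smallest adjusted p = 0.795, limma). An unadjusted p under 0.05 was found in 768 (4.71%), and non-overlapping groups in 465 (2.85%), 386 above and 79 below. Across all of them 64.4% were higher at 13 months, by a median of 0.282 points, and 65% were in HEM. The smallest p-values belonged to C2cd6 (94.27% against 89.12%) and Catsperb, a subunit of the sperm calcium channel (90.17% against 83.51%), both with adjusted p = 0.795 (limma). Among regions lower at 13 months were Gdpd4 (78.21% against 85.57%), Abhd10, a mitochondrial thioesterase gene (14.94% against 18.15%), and Grwd1, a ribosome assembly factor gene (5.974% against 7.786%), each with adjusted p = 0.952 (limma).

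Gene lists fitting ageing brain were then read against that background, and no member of any list passed (limma, adjusted p of 0.952 or more). Counts are over tested regions unless stated. The 3 lists linked to age in other tissues had medians above the 0.282 points of all regions. The 11 tested regions of genes used in methylation age clocks were all higher at 13 months, with a median of 0.81 points, and 10 of the 11 were in HEM. With the 9 measured regions too low in level for the test, 19 of 20 were higher (median 0.681), and Sst, somatostatin, had a difference of -0.543 points. Fhl2, a LIM-domain cofactor, stood at 12.55% against 11.65%, and Obsl1, a cytoskeletal adaptor, at 16.12% against 15.39%. Of 26 developmental transcription factors 20 were higher (median 0.541; 23 in HEM), with the smallest p at Pax9 (6.391% against 5.428%; limma, unadjusted p = 0.0364) and Pax6 (6.874% against 5.956%; limma, unadjusted p = 0.0419). Of 9 Hox genes 7 were higher (median 0.88; 9 in HEM), among them Hoxb5 (5.732% against 4.468%) and Hoxb1 (9.347% against 8.391%). Neighbouring Hox regions share CpGs, so their counts are not independent.

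Both microglial lists had medians below 0. Of 11 regions of homeostatic microglia genes 3 were higher and 8 lower (median -0.626 points; 3 higher in HEM). Tmem119, a surface marker of microglia, stood at 61.84% against 64.7%, Csf1r, the receptor for the growth factor that keeps microglia alive, at 65.44% against 70.08%, and P2ry12, the ADP receptor of resting microglia, at 70.27% against 66.69%. In HEM the first 2 differed by -7.164 and -11.75 points. Of 12 genes of disease-associated and aged microglia 3 were higher and 9 lower (median -0.503; 5 higher in HEM), with Spp1, osteopontin, at 52.81% against 46.4% in WT and at -6.122 points in HEM. The regions of Ccl3 and Ccl4 share CpGs. The mean over 12 microglia regions, used as a covariate in an alternative fit, ran from 41.83 to 49.82% at 13 months and from 44.86 to 48.92% at 3 months, so it overlapped between the ages.

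Lists of other cell types in the homogenate lay at or above the background. Of 11 endothelial and mural genes 8 were higher (median 1.81; 8 in HEM). Tie1, an endothelial receptor kinase, read 82.69, 84.08, 83.99 and 82.69% against 80.83, 81.1, 81.37 and 78.04% (limma, unadjusted p = 0.00656), with a HEM difference of 0.9263 points. Of 11 leukocyte and border macrophage genes 9 were higher (median 1.17), but only 4 were in HEM. Neurons (9 of 14, median 0.304), astrocytes (5 of 8, median 0.324) and the oligodendrocyte lineage (5 of 8, median 0.289) lay near the median of all regions. Gja1, connexin 43 of astrocytes, stood at 38.34% against 35.39% (limma, unadjusted p = 0.024), and Sox10, the oligodendrocyte lineage factor, at 24.84% against 22.46% with a HEM difference of 2.367 points.

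Immune and metabolic lists were mixed. Of 10 interferon response genes 7 were higher (median 0.962), and the smallest p was that of Bst2, the antiviral tetherin, with 8.411% against 7.183% (limma, unadjusted p = 0.0398), while Ddx58, an RNA sensor, had the widest upward difference, 81.94 ± 1.83% against 79.26 ± 5.13% (n = 4 each). Of 12 cytokine and innate sensing genes 9 were higher (median 0.649), whereas Myd88, the adaptor of Toll-like receptors, had 33.85 ± 1.31% against 35.99 ± 0.262% (n = 4 each; limma, unadjusted p = 0.0243). Complement (3 of 6 higher, median -0.137), senescence and cell cycle arrest (3 of 5, median 0.178) and nutrient sensing (6 of 16, median -0.072) lay at or below the background. The enzymes that write, remove and read DNA methylation had 9 of 12 higher, with a median of 0.228 points.

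Imprinted genes, whose methylation is set by parent of origin, had 10 of 18 higher with a median of 0.197 points. Grb10, an imprinted adaptor of insulin receptor signalling, had the smallest unadjusted p of all list members, 0.00185 (limma, adjusted p = 0.952). It read 16.85, 19.22, 17.85 and 17.41% at 13 months and 15.79, 14.52, 15.23 and 14.38% at 3 months, 17.83 ± 1.01% against 14.98 ± 0.658% (n = 4 each), without overlap. In HEM it differed by 0.01943 points. H19, an imprinted noncoding RNA gene, stood at 58.84% against 53.9%, and the promoter window of Meg3, another, at 70.17% against 84.72% (limma, unadjusted p = 0.0199, adjusted 0.898).

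**Figure D4:**
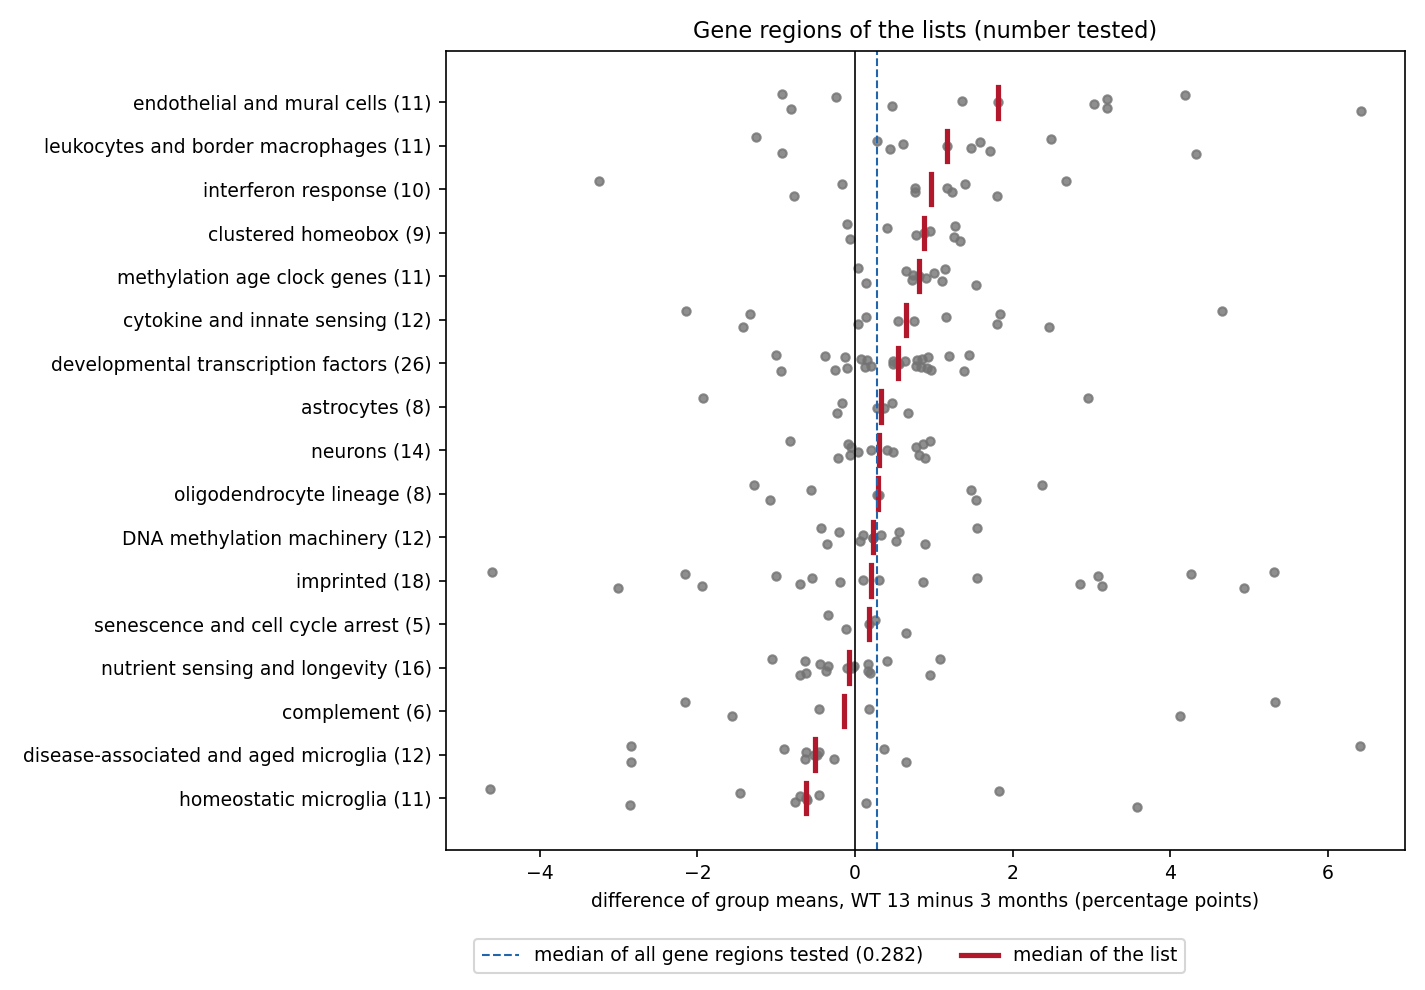
Difference of group means (13 minus 3 months, percentage points) for each tested gene region of 17 lists, with 1 grey point per gene, a red bar at the median of the list and a blue dashed line at the median of all tested gene regions (0.282 points). The medians run from -0.626 for homeostatic microglia to 1.81 for endothelial and mural cells, and the points of every list spread around 0 or on both sides of the dashed line.

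Chromosome 17 gave 4 calls among 21584 tested CpGs (0.0185%), 3 higher (0.0139%) and 1 lower (0.00463%), and none among its 3244 tiles, 832 gene regions and 162 promoters. In Ehd3, a gene of endocytic recycling, chromosome 17, 73805498 was at 0 in every 13-month library and at 8.163, 9.524, 15.85 and 11.11% at 3 months (limma, adjusted p = 0.00984), with a HEM difference of -9.678 points. In Gtf2f1, a subunit gene of the general transcription factor TFIIF, 57006564 was at 100% at 13 months and at 94.74, 84.0, 86.36 and 92.31% at 3 months (limma, adjusted p = 0.0443). The others were 1508 bp from the cytochrome P450 gene Cyp4f37 (11.78 points) and, at 39845397, 105123 bp from its nearest coding gene, the pheromone peptide gene Esp38 (18.23 points). At 39845397 the 40 neighbours within 100 bp had a median difference of 1.76 points. The adjacent cytosine on the other strand differed by 1.148 points, and the HEM difference was -2.377 points. Without WT replicate 3 of 3 months the chromosome gave 0 calls, without replicate 4 or 5 of 3 months 1, without replicate 2 or 7 of 13 months 2, and without replicate 6 of 13 months 79. On this chromosome 66 CpGs differed by 40 points or more, all higher (0.306% of tested CpGs). Their medians were 44.0, 88.7, 0.0 and 90.5% in replicates 1, 2, 6 and 7 of 13 months and 0 in every 3-month library, and the HEM mean was higher at 13 months at all 66. Replicate 6 thus stood with the 3-month libraries there. Neighbours of 62 of them differed by a median of 0.969 points, and 0 by 20 points or more. The mean of the chromosome was 31.21 ± 0.323% against 30.72 ± 0.498% (exact permutation p = 0.114, n = 4 each).

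The chromosome 9 stretch held the only region of many adjacent calls. Of its 64 CpGs 55 were called (85.9%), 54 higher (84.4%) and 1 lower (1.56%), and its mean was 55.86 ± 7.79% at 13 months against 10.46 ± 1.30% at 3 months (exact permutation p = 0.0286, the smallest possible, n = 4 each). The stretch was named in the rule for this comparison with earlier results known. The counts and p-values of the stretch, here and below, thus describe it and are no independent support. Its neighbouring CpGs are not independent of each other. Without WT replicate 3 of 3 months 52 of the 55 calls remained. It contains Gm51701, a noncoding RNA gene in RefSeq whose role is not described here, and the nearest coding gene is the chemokine receptor gene Ccr1, at least 28989 bp away.

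Levels within the stretch changed in steps along the DNA. From 1544 to 1472 bp before the Gm51701 start, 8 CpGs averaged 39.4, 44.1, 25.3 and 33.7% in the 13-month libraries. From 511 to 315 bp before it, 19 CpGs averaged 80.3, 84.4, 78.6 and 62.3%. From 300 to 188 bp before it, within the printed Gm51701 window and just upstream of it, 20 CpGs averaged only 36.4, 45.8, 33.6 and 27.4%. This average mixes strands that differed. Adjacent cytosines on opposite strands had means of 26.58% (123924909) and 46.46% (123924910), and of 33.11% (123924941) and 53.9% (123924942). Positions of both strands stayed below those of the 19 CpGs before them. From 339 to 399 bp past the start 8 CpGs averaged 70.6, 75.9, 64.5 and 41.7%. In the 3-month libraries these 4 blocks averaged between 0.0 and 0.944%. Replicate 2 was the highest in all 4 blocks.

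Farther in, the ages did not differ in this way. The 9 CpGs from 1706 to 8286 bp past the start averaged 68.7% and 73.5%, with libraries of 3 months from 62.0 to 82.9%. These averages include 123933137, which differed by -85.54 points. The others differed by -3.226 to 13.0 points, and only 123933434 of them was lower at 13 months. The exception, 123933137, was the single called CpG that fell. It read 5.621, 6.131, 6.095 and 19.5% at 13 months and 94.12, 100, 96.19 and 89.19% at 3 months, with HEM means of 19.03% and 87.13%. 3 of the 5 tiles of the stretch were called (60%). Averaged over the gene region, Gm51701 rose from 3.05 ± 1.16% to 56.9 ± 9.05% (n = 4 each; limma, adjusted p = 0.00998), and 47 of 47 CpGs of its promoter window were above in every 13-month library. Within 1 Mb on either side of the stretch, 120 tested CpGs had a median difference of 1.44 points, none was called, and 1 differed by 40 points or more, the position in LOC108167320 given above.

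HEM libraries varied more in the same stretch. In the block of 19 CpGs the HEM libraries of 3 months averaged 0.276% at most, and those of 13 months averaged 40.7, 36.0, 80.4, 82.0, 75.4, 0.686, 77.8 and 85.9%. Thus 1 of 8 HEM libraries of 13 months was at the 3-month level and 2 were intermediate, whereas the 4 WT libraries of 13 months were all high.

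**Figure D5:**
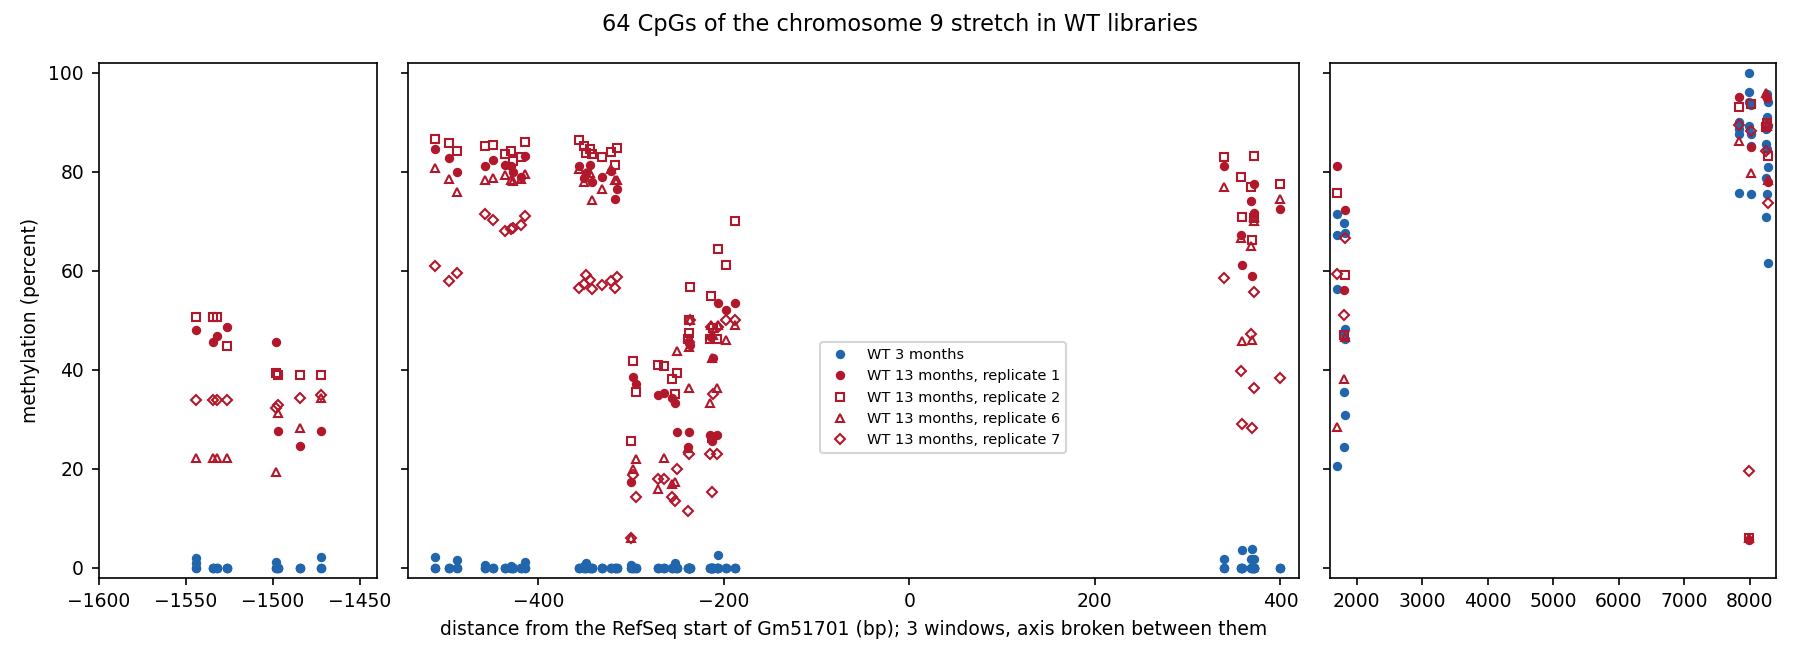
Methylation (percent) of the 64 CpGs of the chromosome 9 stretch against distance from the RefSeq start of Gm51701 (bp, axis broken into 3 windows), blue for the 4 WT libraries of 3 months and 1 red symbol for each WT library of 13 months. The 3-month libraries lie near 0 up to 399 bp past the start, and the 13-month libraries lie above them, replicate 7 lowest at most positions.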

How the data were processed

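Percent methylation per CpG was deposited by the authors for each library, made with Bowtie2 and methylKit on mm10 per the submitters' processing notes, which give no versions, coverage minimum or read counts here. Depth is therefore unknown and no interval could be given. CpGs were matched by chromosome and position across the 8 WT libraries, and sex chromosomes were left out. Percent values were transformed as log2((percent + 1)/(100 - percent + 1)) and tested with limma 3.58.1 (R 4.3.3), WT libraries only, adjusted by Benjamini-Hochberg over all autosomal features of a kind. Features were CpGs with a mean of 5 to 95%, 1000 bp tiles and gene regions with 3 or more CpGs, and promoter windows, the last added after the data were seen. Calls needed an adjusted p under 0.05 and 10 points (CpGs) or 5 points (others). Class means used exact permutation tests. Gene names and starts came from RefSeq tables of GRCm38.p6, and only coding and long noncoding genes were used to place CpGs. The scripts were tested on simulated data.

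The rule for names took all called CpGs and tiles of the remaining autosomes, the 5 tiles, gene regions and promoters of smallest p in each direction, the 2 members of smallest p in each list, and, on chromosome 17 and in the stretch, up to 3 calls each way with the widest gaps; from these the text describes some. P2ry12 and Csf1r, the CpGs called on the percent scale and the genes of the observations were named after their values were seen. The comparison, its regions and the gene lists were chosen with earlier results of these data known. Of 357 list entries 356 matched; 14 lie on chromosome 17 and 3 on X and stand outside the counts. Of the CpGs called on the percent scale, 1 is not reported here.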

Additional observations from a re-analysis of the deposited data

Results flagged for a closer look

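In 14 of 204 groups of 4 libraries examined (6.86%), 1 library lay farther from the others than the 95% limit of Dixon's gap test; chance gives about 1 in 20. The largest gap by size was in the 4 CpGs past the end of Thy1, where WT replicate 3 of 3 months had 38.93% and the others 83.9 to 89.47%. The called CpG of Psd was flagged at both ages, with 20% beside 32.14 to 34.48% at 13 months and 3.846% beside 0 at 3 months. CpGs outside genes but within 1 kb of one had 8.247% in 1 library of 13 months, replicate 7, beside 8.576 to 8.642%. The tile of chromosome 3 from 128003001 had 68.35% in 1 library of 13 months beside 71.89 to 72.32%. Fhl2 had 12.01% in 1 library of 13 months beside 12.68 to 12.79%. The remaining flags were in 3-month libraries. Low values were 80.38% beside 85.38 to 85.93% at Gm34375, in its gene region and its promoter window alike, 87.33% beside 89.56 to 89.93% at C2cd6, 78.04% beside 80.83 to 81.37% at Tie1, and 10.73% beside 12.03 to 12.23% at Tgfbr2. High values were 81.27% beside 77.65 to 78.25% at Gm34572, 9.074% beside 7.185 to 7.496% at Grwd1, and 7.457% beside 7.067 to 7.107% at Bst2. The part of these libraries in the differences between ages was not tested.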

How the results depend on the processing

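No named call changed sign under any alternative, nor did the mean difference of the remaining autosomes. For the calls this was largely fixed in advance. Most alternatives keep the same group means, and leaving out 1 library cannot reverse groups that do not overlap. Signs of uncalled features were not compared. The 24 CpG calls of the remaining autosomes became 5 on the percent scale, 10 with an offset of 5, 8 with a robust trend, 11 with separate variances, 1 with doubled minimum differences, 15 with chromosome 17 and the stretch left out first, and 8 in a fit of all 20 libraries; leaving out 1 library gave 12 to 70. These were in part different CpGs: of the 24, 0 remained called on the percent scale, 1 with the offset of 5, 1 with the robust trend, 11 with separate variances, 4 in the fit of all 20 libraries and 7 to 19 without 1 library. Counts of 39, 70 and 44 came without replicates 1, 2 and 6 of 13 months, and 12 and 38 without replicates 3 and 5 of 3 months. The 4 calls on chromosome 17 became 0 with the percent scale, the offset of 5, the robust trend, the doubled minimum and all 20 libraries, 1 with separate variances and 2 with the microglia covariate; leaving out 1 library gave 0 to 79. The 55 CpGs of the stretch became 33 on the percent scale and 31 with separate variances, and 51 to 55 without 1 library. The 2 called tiles became 0 on the percent scale, with the offset of 5, chromosome 17 left out first, all 20 libraries, the covariate, 500 bp tiles or 5 CpGs per tile, and 1 with separate variances; without 1 library they were 0 to 1. The 3 tiles of the stretch became 1 on the percent scale. The Gm51701 gene region was not called (0) on the percent scale, with separate variances or without flanks, and 0 to 1 without 1 library. Promoters gave 0 to 1 without 1 library, the 1 without replicate 2 of 13 months. The mean difference of the remaining autosomes stayed positive, 0.262 to 0.576 points without 1 library. No paired analysis was possible because the WT libraries of the ages share only replicate number 1. The causes were not tested. Depth, unknown here, limits what any single CpG at 0 or 100% can show.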

Other observations

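The gene regions of low methylation that the test left out leaned the same way. Counting every measured region, tested or not, 33 of 39 clustered homeobox genes and 56 of 66 developmental transcription factors were higher at 13 months, with medians of 0.448 and 0.426 points. Over all 21655 measured gene regions of the remaining autosomes, 13699 (63.3%) were higher, with a median of 0.138 points. In 5 of the 39 and 7 of the 66 every 13-month library was above every 3-month library, and in none was every one below; over all measured regions these shares were 2.35% above and 0.628% below. Means over these lists were 4.04% against 3.53% and 5.97% against 5.58%.

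No region of the DNA methylation enzymes passed the test (limma). Dnmt1, the maintenance methyltransferase, had 54.4 ± 0.992% against 53.5 ± 0.509%, and Dnmt3a, a de novo methyltransferase, had 13.9 ± 0.825% against 14.2 ± 1.09% (SD, n = 4 each). Tet3, which oxidises methylated cytosine, had 32.0 ± 0.633% against 32.4 ± 0.190%. In the complement list the initiating subunit genes C1qa and C1qc spread widely at 13 months, from 16.6 to 33.58% and from 43.31 to 70.03%, which took in the range of 3 months in both.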
